A study of Rattus norvegicus with 8 samples.

Results

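The 8 genes described here were the hypothalamic releasing and modulatory peptide genes Crh, Trh, Sst, Gal, Nts, Adcyap1 and Nucb2, and the transcription factor gene Sim1. They were chosen by name, with earlier results of these data known. Every polyadenylation site listed under any of the 8 symbols was taken and summed per gene. This gave 8 of 12239 genes, 15 of 73922 sites and 1094 of 13341135 reads. Adult male Long-Evans rats, 8 in all, had their hypothalamus profiled by whole transcriptome termini site sequencing (WTTS-seq), a method that counts the 3′ ends of polyadenylated RNA. The control group of 4 rats ate standard rodent chow, and the obesity group of 4 rats, labelled as diet-induced obesity, had a high fat diet ad libitum. Tissue was taken after 36 days of diet. No transgene, drug or further treatment is named in the labels for either group.

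These peptides set the output of the hypothalamus. Corticotropin-releasing hormone (Crh) drives the release of corticotropin from the pituitary, thyrotropin-releasing hormone (Trh) drives that of thyrotropin, and somatostatin (Sst) restrains growth hormone. Galanin (Gal), neurotensin (Nts), the pituitary adenylate cyclase-activating polypeptide (Adcyap1) and nesfatin-1, which is cut from nucleobindin 2 (Nucb2), act on feeding, stress and energy balance. Sim1 is a transcription factor needed for the neurons of the paraventricular nucleus, where Crh and Trh are made, and loss of a copy of it leads to obesity with overeating.

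The proximal promoters of the peptide genes with a single site are shown because cAMP signalling through elements of this kind is the textbook control of several of them. RefSeq promoters (assembly GRCr8, 250 bases before to 50 bases after the start) were found for 6 of the 8 genes, and Crh and Nucb2 were not in that table. The stretches below run from 120 bases before the RefSeq start through the 20 bases from that start on. They lie at chr4:126301743-126301882 (minus strand) for Trh, chr11:90461426-90461565 (plus) for Sst, chr1:210084553-210084692 (minus) for Gal and chr7:39460869-39461008 (minus) for Nts. Capitals mark the cAMP response element TGACGTCA, its core TGACG on either strand, the TATA box TATAAA, and the core ACGTG on either strand.
Trh: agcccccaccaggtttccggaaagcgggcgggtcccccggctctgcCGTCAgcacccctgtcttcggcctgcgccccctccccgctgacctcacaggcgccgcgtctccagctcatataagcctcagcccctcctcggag
Sst: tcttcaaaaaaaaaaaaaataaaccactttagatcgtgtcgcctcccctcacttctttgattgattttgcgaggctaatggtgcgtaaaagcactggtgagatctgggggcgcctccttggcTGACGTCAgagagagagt
Gal: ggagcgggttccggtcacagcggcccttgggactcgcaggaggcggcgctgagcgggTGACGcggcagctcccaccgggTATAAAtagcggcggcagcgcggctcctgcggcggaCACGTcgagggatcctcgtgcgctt
Nts: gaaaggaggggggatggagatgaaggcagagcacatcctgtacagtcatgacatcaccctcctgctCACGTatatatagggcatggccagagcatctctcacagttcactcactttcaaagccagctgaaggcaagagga
The full cAMP response element was found, of the 6 genes, in Sst alone. There it began at base 3 counted from the RefSeq start. Positions here are relative to that annotated start, and where transcription starts in this tissue was not measured. Of 27457 promoters of the same length, 1.91% held this element. Its core, which the full element contains, was also found in Trh, Gal and Nts, against 22% of all promoters. In Nts that core lay 171 bases before the start and an AP-1 element, TGAGTCA, lay 212 bases before it, both outside the stretch shown. The AP-1 letters occurred in 4.53% of promoters. The core bound by Sim1 with its partner Arnt2, ACGTG, was found in Gal and Nts and in 19.7% of all promoters. TATAAA, searched on the gene strand only while the other motifs were searched on both, was found in Gal and Adcyap1, against 9.08% of all promoters. It lay 41 bases before the start in Gal. In Adcyap1 the match lay 248 bases before the start, at the far end of the window. None of the 5 motifs was found in the window of Sim1. A match is a match of letters only, and these data did not measure binding.

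Depth and sample checks come before the comparison. The libraries held between 1417531 and 1957726 reads, so that 3 reads, the limit that a count of 0 allows, corresponded to 1.53 to 2.12 CPM (counts scaled to the library total) for counting error only. Levels of genes and of marker lists below are CPM of gene-assigned reads scaled by the trimmed mean of M values (TMM), except where all sites are named as the base. Control library 1 and obesity library 1 stood apart, with 14788 and 10659 sites at 0 against 4062 to 6622 in the others. All 10 hypothalamus markers were measured. Their summed level did not overlap between the groups, with 1069 to 1481 CPM in control and 864 to 1065 CPM in obesity libraries, most of it Avp. The markers did not move together, with 3 fitted higher and 7 lower. Avp and Oxt were lower without overlap, and Otp was higher without overlap. Sim1, itself among the 8 genes, is on this list. Of 5 midbrain dopamine neuron markers 2 were measured (Th and Nr4a2), at 32.3 to 55.1 CPM in control and 1.32 to 28.9 CPM in obesity libraries. Th gave most of this sum, with 286 reads against 31 for Nr4a2, and Slc6a3, En1 and Pitx3 were not measured. Since dopamine neurons also lie in the hypothalamus, Th does not mark the midbrain alone. Anterior pituitary markers, 3 of 7 measured, ranged from 17.2 to 55.8 and from 5.95 to 124 CPM, with the highest value in obesity library 2. Of 5 choroid plexus markers Ttr alone was measured, at 95.2 CPM in obesity library 4 and at most 1.49 CPM in the other libraries. Telencephalon markers, 2 of 8, ranged from 52.4 to 78.9 in control and from 40.3 to 142 CPM in obesity libraries, and thalamus markers, 4 of 5, from 454 to 609 and from 321 to 536 CPM. The part of these differences between libraries in the results below was not tested.

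The genes were present at low levels. On a scale of CPM of the reads at all sites, 7 of the 8 lay below the median gene (17.6 CPM), in percentiles 16.1 (Nts) to 42.1 (Sim1) of the 12239 genes. Adcyap1 was the exception, at 27.2 CPM and percentile 61.5, and its level without the reads on the opposite strand described below was 13.1 CPM, percentile 42.3. Without such reads Sim1 was at 6.21 CPM, percentile 24.2. The vasopressin gene Avp (715 CPM) and the melanin-concentrating hormone gene Pmch (132 CPM) lay far above all 8. A read is a 3′ end, so these levels compare genes as numbers of 3′ ends and do not scale with transcript length. Summed over both strands, Adcyap1 ranked first in both groups, but on its gene strand alone it was below Trh in the obesity group (10.7 against 12.6 CPM of gene-assigned reads). Each gene overlapped its neighbour in the order of summed levels.

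**Figure D1:**
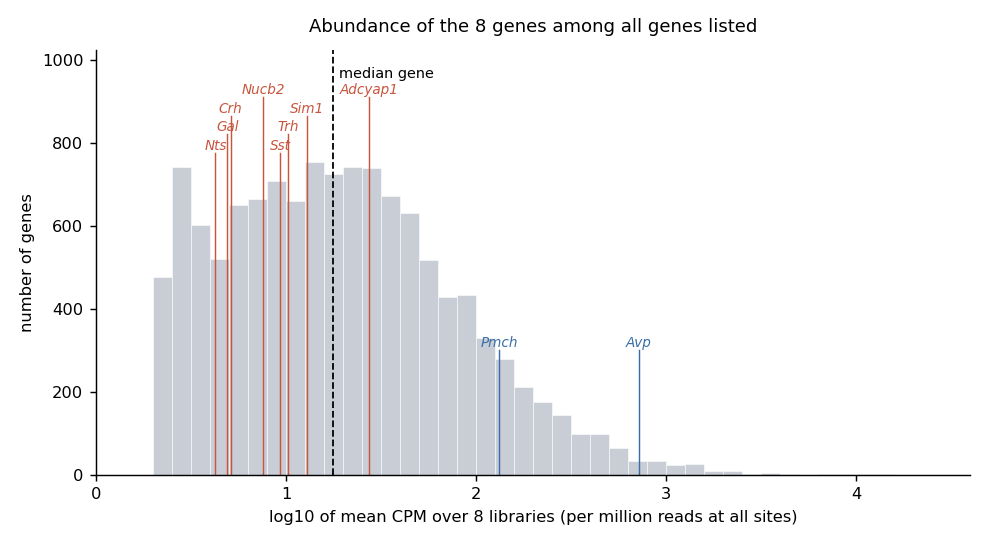
Number of genes (vertical axis) by the log10 of mean CPM over the 8 libraries (horizontal axis, CPM of the reads at all sites). Red lines mark the 8 genes, blue lines Pmch and Avp, and the dashed line the median gene at 17.6 CPM, with Adcyap1 alone among the 8 to its right.

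Between diets, Crh was higher in obesity and Sst was lower, and in neither gene did the groups overlap. Sim1 was also higher in each obesity library than in the control library of the same number, although its groups overlapped. These 3 differences had unadjusted p-values under 0.05, and none of the 8 genes passed an adjusted p of 0.1 over all genes. The same held for the whole table, in which 0 of 12239 genes (0.0%) passed with the quasi-likelihood test of edgeR, 3 passed with DESeq2 and 646 had an unadjusted p under 0.05 with edgeR. The replicate numbers of the labels behaved as pairs by correlation, though not for every number by a chi-square measure. With replicate number as a block, 15 genes (0.123%) passed, none of them among the 8. At the unadjusted level 2 of 8 genes were higher, against 2.76% of all genes, and 1 of 8 was lower, against 2.52%. A single gene of the 8 was higher without overlap (1.85% of all genes) and a single gene was lower without overlap (1.68% of all genes). Because the 8 genes were chosen with earlier results of these data known, these shares are a description and no test. The higher level of Sim1 lay mainly on the strand opposite to the gene, as given below. The median log2 fold change was 0.13 over the 8 genes, of which 5 were fitted higher and 3 lower, and 0.01 over all genes. In bulk tissue, fewer cells of a type and less RNA per cell cannot be told apart.

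**Figure D2:**
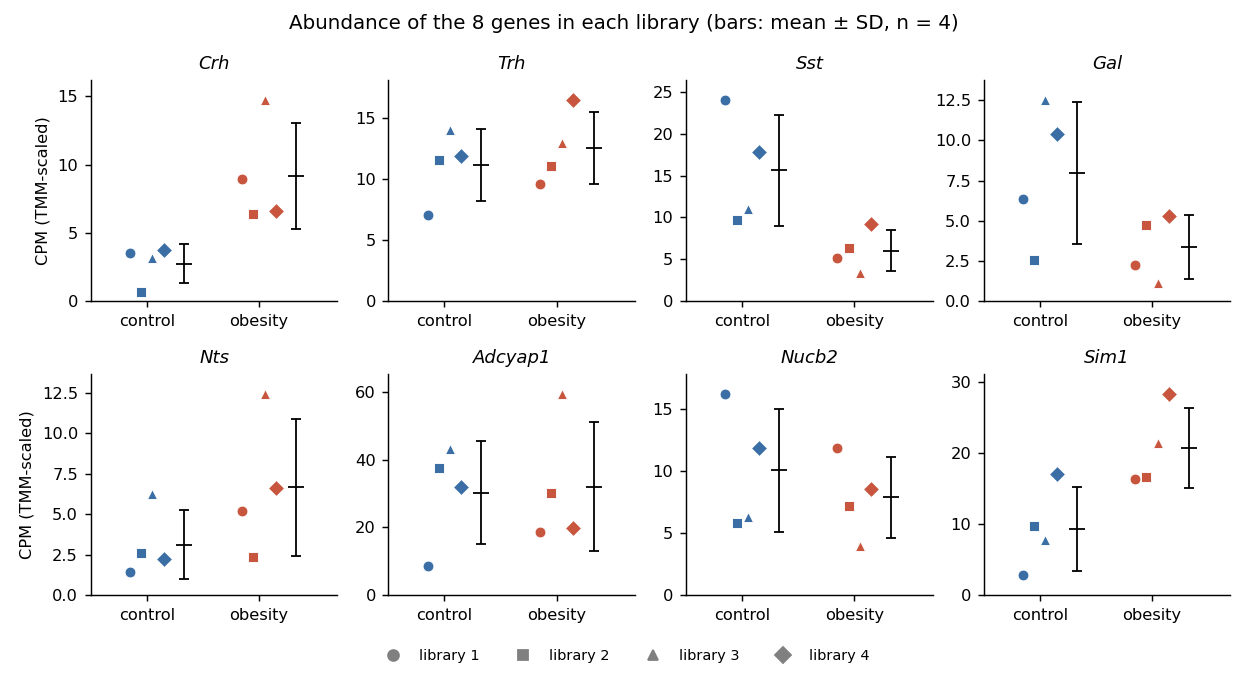
TMM-scaled CPM of each gene in each library (points, with the same symbol for the same library number) for the control group in blue and the obesity group in red; black bars are mean ± SD, n = 4. Crh is higher and Sst lower in the 4 obesity libraries with no overlap, and the other 6 genes overlap.

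Crh held a single site, on the minus strand at chr2:104461783-104461831 (Rnor_6.0, the build of all sites given here). It had 5, 1, 4 and 5 reads in control libraries 1 to 4 and 12, 8, 26 and 10 reads in obesity libraries 1 to 4. Every obesity library was therefore above every control library, and the highest, obesity library 3, also had the most reads in all. Crh was at 2.76 ± 1.43 CPM in control and 9.15 ± 3.89 CPM in obesity libraries (SD, n = 4), a 3.32-fold difference that did not pass the test over all genes. The log2 fold change was 1.72 ± 0.75 (SE; edgeR unadjusted p = 0.0339, adjusted p = 0.905; exact two-sided permutation p = 0.0286). With 4 against 4 libraries, 0.0286 is the smallest p that the 70 arrangements can give. These arrangements do not keep same-numbered libraries together as pairs. The spread among control libraries (coefficient of variation 51.8%) was close to that of counting so few reads (51.6%), whereas among obesity libraries it was 42.5% against 26.7% from counting.

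Trh, the other releasing hormone of paraventricular neurons, had 10, 18, 18 and 16 reads in control libraries and 13, 14, 23 and 25 in obesity libraries at its site on the minus strand, chr4:124110706-124110727. The groups overlapped and 2 of 4 obesity libraries lay above the control library of their number. The level was 11.2 ± 2.95 CPM in control and 12.6 ± 2.97 CPM in obesity (SD, n = 4), with a log2 fold change of 0.18 ± 0.48 (SE; edgeR unadjusted p = 0.719, adjusted p = 0.992).

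Sst, the inhibitor of growth hormone release, had its site on the plus strand at chr11:80359416-80359455. It was read 34, 15, 14 and 24 times in control libraries and 7, 8, 6 and 14 times in obesity libraries. In scaled CPM all 4 obesity libraries lay below all 4 control libraries, at 6.05 ± 2.46 against 15.6 ± 6.65 (SD, n = 4), so that the control mean was 2.58-fold the obesity mean. The log2 fold change was -1.36 ± 0.55 (SE; edgeR unadjusted p = 0.0232, adjusted p = 0.905; exact permutation p = 0.0286). Its promoter window is the one above with the full cAMP response element, at base 3 from the annotated RefSeq start. Among the hypothalamus markers, Avp and Oxt were also lower without overlap, whereas Otp was higher without overlap.

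Of the modulatory peptides, Gal and Nts were counted least. Gal, at chr1:218653052-218653072 on the minus strand, had 9, 4, 16 and 14 reads in control and 3, 6, 2 and 8 in obesity libraries. Its level was 7.97 ± 4.41 and 3.35 ± 1.99 CPM (SD, n = 4) and its log2 fold change -1.23 ± 0.79 (SE; edgeR unadjusted p = 0.138, adjusted p = 0.92), with overlap between groups and a lower value in 3 of 4 pairs of libraries. Nts, at chr7:44111592-44111596 on the minus strand, had 2, 4, 8 and 3 reads in control and 7, 3, 22 and 10 in obesity libraries. Nts values overlapped too, since control library 3 lay above obesity libraries 1 and 2, and the log2 fold change was 1.1 ± 0.83 (SE; edgeR unadjusted p = 0.202, adjusted p = 0.926). It was 0.59 without obesity library 3 and 1.65 without control library 3.

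Nucb2, the precursor of nesfatin-1, had 2 sites on the minus strand of chromosome 1, at chr1:185106806-185106817 (40 reads) and chr1:185119102-185119119 (61 reads), 12.3 kb apart. Summed over both, there were 23, 9, 8 and 16 reads in control and 16, 9, 7 and 13 in obesity libraries. The numbers were near each other in each pair of libraries. The level was 10.1 ± 4.97 CPM in control and 7.90 ± 3.28 CPM in obesity (SD, n = 4), with a log2 fold change of -0.35 ± 0.59 (SE; edgeR unadjusted p = 0.557, adjusted p = 0.98). The share of reads at the site with the higher coordinate ranged from 22.2% to 75% in control and from 33.3% to 81.2% in obesity libraries, so the libraries of a group differed more than the groups did.

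Adcyap1, which encodes a peptide that raises cAMP, had 12, 58, 55 and 43 reads in control and 25, 38, 105 and 30 in obesity libraries over 4 sites. The sum was nearly level, at 30.2 ± 15.2 and 32.0 ± 19.0 CPM (SD, n = 4; log2 fold change 0.09 ± 0.47, SE). That sum joined both strands. RefSeq places Adcyap1 on the minus strand, and 3 sites lay there within 864 bases, at chr9:121706670-121706672 (44 reads), chr9:121706879-121706890 (41 reads) and chr9:121707514-121707540 (87 reads). The fourth, chr9:121713382-121713390, lay on the plus strand and took 194 of 366 reads (53%).

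The reads on each strand of Adcyap1 ran in opposite directions between diets, and neither difference passed the test. On the gene strand there were 7, 51, 27 and 24 reads in control and 5, 23, 23 and 12 in obesity libraries, lower in 4 of 4 pairs of libraries. The level was 19.3 ± 11.5 and 10.7 ± 6.36 CPM (SD, n = 4), with a log2 fold change of -0.85 ± 0.58 (SE; edgeR unadjusted p = 0.166, adjusted p = 0.933). It was -0.45 without control library 2 and -1.23 without obesity library 2. On the opposite strand there were 5, 7, 28 and 19 reads in control and 20, 15, 82 and 18 in obesity libraries, most of them in obesity library 3. The log2 fold change there was 0.95 ± 0.62 (SE; edgeR unadjusted p = 0.143, adjusted p = 0.93), and it was 0.21 without obesity library 3 and 1.52 without control library 3. As a share of Adcyap1 reads, the opposite strand held 37.2% ± 17.2 in control and 64.4% ± 18.9 in obesity (SD, n = 4), higher in 4 of 4 pairs, with an exact permutation p of 0.114.

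Sim1 also had sites on both strands, and its higher total in obesity lay mainly on the strand opposite to the gene. In total it had 4, 15, 10 and 23 reads in control and 22, 21, 38 and 43 in obesity libraries. Obesity libraries were higher in all 4 pairs, but control library 4 reached the level of obesity libraries 1 and 2. The level was 9.36 ± 5.92 and 20.7 ± 5.64 CPM (SD, n = 4), with a log2 fold change of 1.15 ± 0.51 (SE; edgeR unadjusted p = 0.0379, adjusted p = 0.905; exact permutation p = 0.0857). RefSeq places Sim1 on the plus strand, where sites lay at chr20:55595144-55595152 (34 reads) and chr20:55673994-55674000 (47 reads), 78.8 kb apart. The minus-strand sites chr20:55603766-55603772 (43 reads) and chr20:55666659-55666660 (52 reads) lay between them and held 54% of the reads.

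On the gene strand Sim1 had 4, 10, 8 and 13 reads in control and 6, 17, 11 and 12 in obesity libraries. These groups overlapped, and the log2 fold change was 0.33 ± 0.64 (SE; edgeR unadjusted p = 0.611, adjusted p = 0.982), or -0.044 without obesity library 2. On the opposite strand there were 0, 5, 2 and 10 reads in control and 16, 4, 27 and 31 in obesity libraries. Obesity libraries 1, 3 and 4 lay above all control libraries, and obesity library 2 lay among them. The level there was 3.06 ± 3.21 and 12.6 ± 7.22 CPM (SD, n = 4), with a log2 fold change of 2.02 ± 0.83 (SE; edgeR unadjusted p = 0.0271, adjusted p = 0.906). Leaving out single libraries gave from 1.62 (control library 1) to 2.90 (control library 4), with edgeR unadjusted p-values up to 0.0977. Of all Sim1 reads the opposite strand held 24.2% ± 18.8 in the control group against 58.7% ± 26.5 in the obesity group (SD, n = 4), with an exact permutation p of 0.114.

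**Figure D3:**
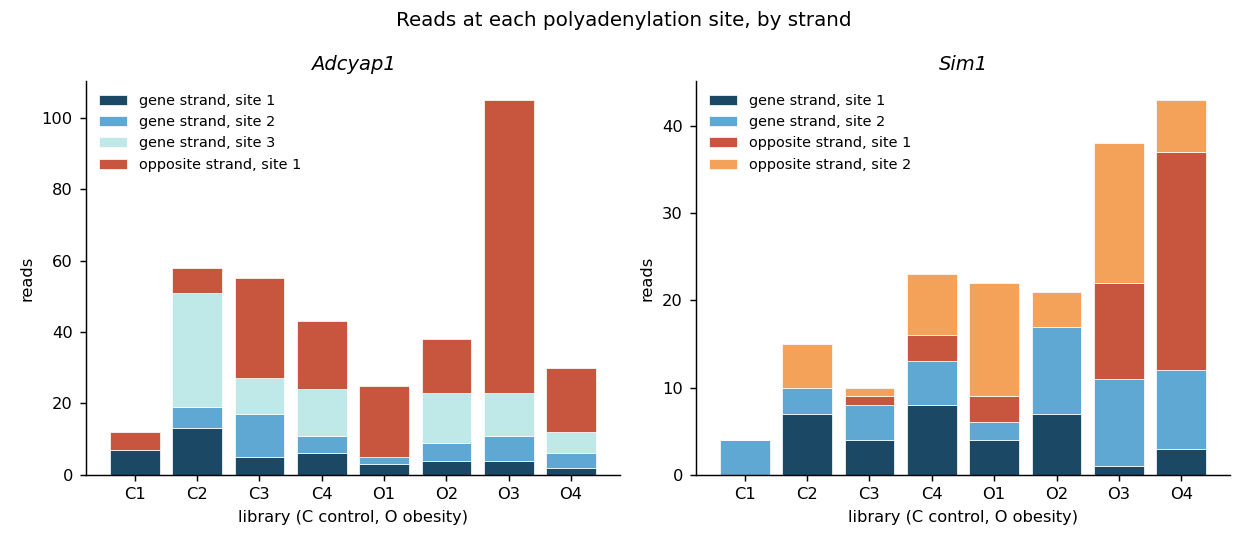
Reads at each site (stacked bars, vertical axis) of Adcyap1 and Sim1 in each library (C control, O obesity), with sites on the gene strand in blue shades and on the opposite strand in red and orange, numbered by rising coordinate. The tallest red block of Adcyap1 is the 82 reads of obesity library 3, and for Sim1 the opposite strand outweighs the gene strand in obesity libraries 1, 3 and 4 only.

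Reads on the strand opposite to the assigned gene were not particular to these genes. Over 8374 genes with a RefSeq strand, 10.5% of reads were opposite, and 958 genes (11.4%) had most of their reads there. Among the 10 nearest genes the share was 2.66% around Adcyap1 and 5.51% around Sim1. The share over all genes was 8.82% to 10.4% in control and 9.85% to 12.7% in obesity libraries, and its part in the Sim1 and Adcyap1 values was not tested. On the strand of the opposite sites, the nearest listed site of another gene was assigned to Yes1, 161 kb from the Adcyap1 site. For the Sim1 sites it was assigned to Ascc3, 284 and 347 kb away. Whether Yes1 and Ascc3 themselves lie on that strand was not checked, and genes without a listed site were not searched. RefSeq strands come from GRCr8 and the sites from Rnor_6.0, and a stretch turned round between the assemblies would swap strands. Around Trh, where the 10 nearest genes had 60.9% of reads opposite, Trh itself had 0%. For Crh and Nucb2 the strand was not looked up, because neither was in the promoter table.

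**Figure D4:**
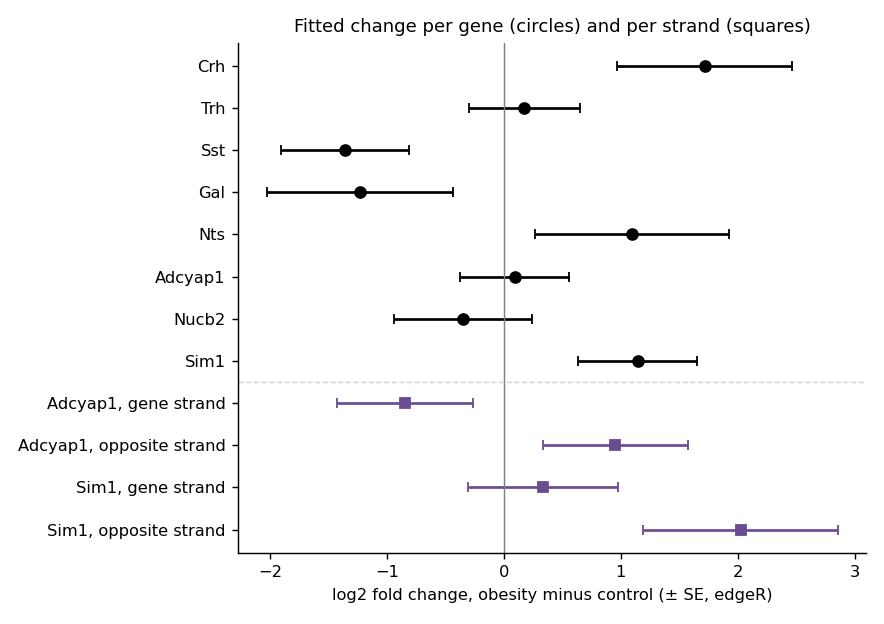
Log2 fold change between obesity and control (horizontal axis, edgeR, bars ± SE) for the 8 genes (circles) and for the strands of Adcyap1 and Sim1 (squares). Crh and Sim1 lie right of 0 and Sst left of it; the opposite strand of Sim1 lies at 2.02 and its gene strand at 0.33.

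At the level of single sites, 1 of 73922 sites passed an adjusted p of 0.1 (0.00135%), and it was none of the 15. An unadjusted p under 0.05 was reached by 2 of the 15 sites, those of Crh and Sst, against 3.14% of all sites. Both genes have a single site, so the results at their sites repeat the reads already tested per gene. The groups did not overlap at 1 site with higher levels, that of Crh (1.43% of all sites), and at 2 with lower levels (1.69% of all sites), that of Sst and the gene-strand site of Adcyap1 at chr9:121706670-121706672. On the scale of all sites, the latter had 4.76 ± 1.82 CPM in control and 1.90 ± 0.69 CPM in obesity libraries (SD, n = 4; log2 fold change -1.30 ± 0.81, SE). How reads were divided among the sites of a gene was tested in 8267 genes, and 1 of them passed (0.0121%). For Adcyap1, Sim1 and Nucb2, the 3 genes with more than a single site, edgeR's Simes p-values were 0.418, 0.401 and 0.849 and the adjusted p was 1 in each.

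Around the 8 genes, 45 of 82 genes in 6 lists of the pathway were measured and 0 passed the edgeR test, also with the replicate block. At an unadjusted p under 0.05, 1 of the 45 was higher (2.76% of all genes) and 2 were lower (2.52% of all genes). Without overlap between groups, 2 of the 45 were higher (1.85% of all genes) and 3 lower (1.68% of all genes). The medians of the lists given below changed sign when single libraries were left out, except that of the other neuropeptides. Of the receptors for these peptides 9 of 18 were measured, 5 fitted higher and 4 lower, with a median log2 fold change of 0.01. The most abundant were Sort1, a sorting receptor that binds neurotensin, at 70.7 ± 20.5 and 76.1 ± 14.3 CPM, and Ntsr2, a neurotensin receptor, at 51.7 ± 8.85 and 50.2 ± 9.08 CPM (SD, n = 4). Among genes that bind or break down the peptides 4 of 8 were measured, with a median of 0.04. Trhde, which degrades thyrotropin-releasing hormone, was at 76.7 ± 24.1 and 76.3 ± 25.2 CPM, and Nln, which cleaves neurotensin, at 19.5 ± 4.53 and 23.2 ± 8.40 CPM. Family relatives were measured in 2 of 10 cases, Nucb1 (log2 fold change -0.27) and Sim2 (0.38).

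Transcription factors of the hypothalamus were measured in 9 of 15 cases, 5 fitted higher and 4 lower, with a median of 0.09. The most abundant were Arnt2, the partner of Sim1, at 175 ± 34.1 and 194.9 ± 26.6 CPM, and Dlx1 at 113 ± 21.3 and 108 ± 20.3 CPM (SD, n = 4). Genes of hormone feedback were measured in 9 of 11 cases, with a median of 0.07. They were led by the glucocorticoid receptor gene Nr3c1 (log2 fold change 0.07) and the thyroid hormone receptor gene Thra (-0.29). Of the other neuropeptides 12 of 20 were measured, 4 fitted higher and 8 lower, with a median of -0.22. All 3 list genes at an unadjusted p under 0.05 came from this list. Npvf, the precursor of RFamide-related peptides, was at 12.7 ± 3.23 and 26.0 ± 4.15 CPM, the oxytocin gene Oxt at 60.6 ± 10.2 and 36.4 ± 10.5 CPM, and Avp at 952 ± 168.2 and 702.1 ± 82.5 CPM. Their edgeR adjusted p was 0.905, as for Crh, Sst and Sim1.

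Across the 8 libraries, 28 pairs of the genes were compared by the correlation of log2 CPM. Pearson's r ran from -0.88 to 0.74, with 14 pairs positive and 14 negative, and none passed a Benjamini-Hochberg adjusted p of 0.05. The extreme pair was Adcyap1 and Nucb2 (r = -0.88, exact permutation p = 0.00372, adjusted 0.104; Spearman's rho -0.83, p = 0.0154). Without the 2 libraries farthest from the median of Adcyap1, r was -0.65 over the 6 that remained (exact permutation p = 0.172).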

How the data were processed

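WTTS-seq libraries of 4 control and 4 obesity rats were analysed. The values the authors deposited were raw read counts per polyadenylation site, not normalized. The submitters' processing notes name Bowtie2 2.2.3 and Rnor_6.0. How sites were clustered and assigned to genes is not given in the sources used here. The lowest site total was 30 reads, so rarer sites had been removed before deposition and a gene may hold sites not counted here. At 273 sites the symbol was a mark and was treated as no gene, and 1 line without a site, a column total, was left out. Internal A-rich stretches of RNA can be primed as if they were 3′ ends, and no molecular identifiers were used.

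The genes and lists were chosen with earlier results of these data known. Counts were summed per symbol over both strands and fitted with edgeR 4.0.16 (quasi-likelihood F test, robust, TMM scaling, no filter) in R 4.3.3 over all genes, with Benjamini-Hochberg adjustment over all features tested and a threshold of 0.1. Sites were fitted likewise, and site usage with diffSpliceDGE and Simes p-values. The SE of an edgeR log2 fold change was derived as its absolute value divided by the square root of the F statistic. Scripts were tested on simulated data. Alternatives were DESeq2 1.42.0, other scalings, filterByExpr, the replicate block, other strands or sites, and each library left out. The split by RefSeq strand was chosen after the data were seen. Permutations used scipy 1.17.1.

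Deviations of same-numbered libraries correlated in all 4 pairs (r 0.252 to 0.375, against -0.21 to 0.08 for different numbers), so the numbers were taken as pairs, from the data. By chi-square per gene between libraries, control libraries 1 and 2 were nearest to the obesity library of their number. Control libraries 3 and 4 were nearer to obesity library 2 (7.89 and 6.85) than to that of their number (11.8 and 7.51). The pairs entered the replicate block and the counts of pairs only. The main fit and the exact permutation tests between groups did not use them. The RNA came from 8 rats, and what same-numbered rats have in common is not stated. The named genes were the 8 genes with every site, list genes with an unadjusted p under 0.05, the 2 most abundant genes of each list, and the 2 genes with the highest r with each of the 8 (mean of at least 10 reads per library).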

Additional observations from a re-analysis of the deposited data

Results flagged for a closer look

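Dixon's test for a library far from the other 3 of its group was run in 40 groups of 4, of which chance would flag about 1 in 20, that is 2, and 3 were flagged. At the opposite-strand site of Adcyap1, chr9:121713382-121713390, obesity library 3 had 41.5 CPM (of the reads at all sites) while the rest of its group lay between 10.1 and 11.3. At the gene-strand site chr9:121706670-121706672, control library 2 had 7.48 CPM against 3.67 to 3.95 in the other control libraries. The share of Sim1 reads on the opposite strand was 19.0% in obesity library 2 and 71.1% to 72.7% in the other obesity libraries.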

How the results depend on the processing

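Where an alternative gave an adjusted p, none of the 8 genes, 15 sites, 3 tests of site usage or 45 list genes passed the threshold, the replicate block among them (0 of 8 genes, with adjusted p of 0.391 for Crh, 0.348 for Sst and 0.293 for Sim1), and no pair of genes passed as a correlation. The filterByExpr setting dropped Crh, Gal and Nts and kept 4 of the 15 sites and 1 of the 3 tests of site usage, and DESeq2 gave an adjusted p to 4 of the 15 sites. Of 338 recomputed log2 fold changes of the genes and sites, 325 kept their sign and 13 changed it. The median log2 fold changes of the lists changed sign in 12 of 66 recomputed values, in 5 of the 6 lists (all but the other neuropeptides), whose medians lay between -0.12 and 0.18. When each library was left out in turn, the log2 fold change ranged from -0.0087 to 0.30 for Trh (below 0 without control library 1) and from -0.41 to 0.31 for Adcyap1 (below 0 without control library 1 or obesity library 3). The same ranges were -0.086 to 0.28 at the Trh site, -0.70 to 0.25 at the Nucb2 site 185119110, -0.97 to 0.22 at the Adcyap1 site 121706887 and -1.01 to 0.0051 at the Sim1 site 55595148. For Adcyap1 it was -0.83 on the RefSeq strand only, -0.80 there with the replicate block, and -0.16 and -0.034 in the block without pair 1 and without pair 3. The cause of these changes of sign was not tested. Sums over the strand with most reads took the opposite strand of Adcyap1 and Sim1, with log2 fold changes of 0.97 and 2.03. Left-out libraries moved the unadjusted edgeR p from 0.0333 to 0.135 for Crh, 0.0145 to 0.0839 for Sst and 0.0113 to 0.108 for Sim1. Depth limits what can be seen, since few reads carry each gene: the SE of the log2 fold change was 0.47 to 0.83 over the 8 genes, against a median of 0.45 over all genes.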

Other observations

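In 2 genes of the lists that were not named by the rule, and were picked after their values were seen, the groups did not overlap. Otp, a transcription factor of paraventricular neurons, was at 1.41 ± 1.06 CPM in control and 5.09 ± 1.86 CPM in obesity, and the somatostatin receptor gene Sstr2 at 7.68 ± 1.81 and 3.24 ± 1.35 CPM (SD, n = 4). Neither passed the edgeR test over all genes, and the edgeR unadjusted p was 0.0983 for Otp and 0.112 for Sstr2. Few reads carried both genes, 38 for Otp and 62 for Sstr2 over the 8 libraries.

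Among about 9396 genes with a mean of at least 10 reads per library, the gene whose log2 CPM ran most like each of the 8 over the 8 libraries was Myef2 for Crh (Pearson r = 0.97), Myo5b for Trh (0.99), Fxyd7 for Sst (0.95), Polr1b for Gal (0.98), Zfp236 for Nts (0.96), Disp3 for Adcyap1 (0.98), Larp7 for Nucb2 (0.96) and Naa25 for Sim1 (0.97). The next were Lsm14a, Lcor, Slc35a3, Ndrg4, RGD1311345, LOC103692984, Rgs17 and LOC103693073 in the same order, at r of 0.94 to 0.97. These are the highest of many values over few libraries that share depth and pairing, and carry no test.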
